A study of Mus musculus with 9 samples.

Results

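Solute carriers are membrane proteins that move nutrients, ions, metals, vitamins and metabolites across the cell surface and across the membranes of organelles. The genes described here are the solute carriers expressed in the wild-type (WT) mouse cornea. They were chosen by level: of 361 genes whose symbol starts with Slc and a digit, the 152 with a mean log2 intensity of 8 or more over the 3 WT arrays were kept. Each gene was represented by the brightest of its rows with exactly 1 symbol, and the array measured 22180 genes in this way, of which 8672 passed the same level in WT. The level in WT therefore chose the members, so every difference from WT below is a description, printed without a p-value. Counts of calls against WT use an adjusted p under 0.05 as a cutoff and are descriptions too. The comparison of rescued with mutant corneas, which did not enter the threshold on the WT level, carries the tests. It was not wholly apart from the choice, since members, classes and lists were chosen with earlier results of these data known. The brightest row of a gene was also picked over all arrays, mutant and rescued included. The adjusted p-values of this comparison are to be read with these limits.

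Whole corneas of 3 genotypes were compared on 9 single-colour Affymetrix expression arrays, 3 per group. The first group was WT. Mutant mice (Dstn corn1) lacked normal destrin, an actin depolymerising factor that Dstn encodes. Rescued mice were Dstn corn1 too, and in them Srf, which encodes serum response factor, a transcription factor of actin genes, had been removed genetically in the epithelium of the cornea. The labels do not name the driver of this ablation, and by design it leaves Srf in the other corneal cells. All mice, WT included, had intraperitoneal doxycycline from day 28 after birth until collection at day 58. Their strain background was mixed, from A.BY, C57BL6/J and 129 mice together with Swiss Black and FVB. Each array held a pool of 10 corneas from 5 mice, so that the animals within a pool cannot be separated and n = 3 counts pools.

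The normal cornea has no blood vessels. Its epithelium and endothelium draw glucose, amino acids and vitamins from the aqueous humour and the tears, export lactate, and keep the stroma thin and clear by moving bicarbonate, chloride and sodium. Phosphate enters cells through sodium-coupled carriers of the Slc34 and Slc20 families, glucose through facilitative Slc2 and sodium-coupled Slc5 carriers, and zinc through the Slc39 importers, which the Slc30 exporters oppose.

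Slc34a2 and Slc39a8 were low in the mutant corneas and higher in the rescued corneas, whereas Slc20a1 and Slc16a1 moved the other way, and Slc5a1 was highest in the rescued corneas. The promoters of these 5 genes are shown because the results turn on them. Each runs from 250 bases before to 50 bases after an annotated start, 5′ to 3′ on the plus strand, in RefSeq's GRCm38.p6 assembly, and the first listed start of each gene is printed. Capitals mark matches, on either strand, to the antioxidant response element (TGACNNNGC) or to the E-box (CACGTG). The CArG box, the element that serum response factor binds, was searched too and had no match in these 5 sequences, which says only that its letters are not in these windows.
Slc34a2, chr5:53049103-53049402, plus strand: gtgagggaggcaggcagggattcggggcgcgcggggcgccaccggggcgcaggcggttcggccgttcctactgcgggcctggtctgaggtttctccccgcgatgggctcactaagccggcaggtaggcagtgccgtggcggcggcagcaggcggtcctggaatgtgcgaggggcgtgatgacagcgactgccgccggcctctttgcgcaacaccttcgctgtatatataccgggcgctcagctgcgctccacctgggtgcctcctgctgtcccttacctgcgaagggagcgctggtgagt
Slc20a1, chr2:129198523-129198822, plus strand: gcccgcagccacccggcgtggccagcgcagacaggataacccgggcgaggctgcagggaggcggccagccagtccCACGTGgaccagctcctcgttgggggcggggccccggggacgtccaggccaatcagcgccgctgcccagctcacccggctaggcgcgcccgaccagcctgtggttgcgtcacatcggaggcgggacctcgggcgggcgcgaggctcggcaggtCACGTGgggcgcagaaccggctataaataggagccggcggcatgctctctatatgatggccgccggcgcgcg
Slc39a8, chr3:135825029-135825328, plus strand: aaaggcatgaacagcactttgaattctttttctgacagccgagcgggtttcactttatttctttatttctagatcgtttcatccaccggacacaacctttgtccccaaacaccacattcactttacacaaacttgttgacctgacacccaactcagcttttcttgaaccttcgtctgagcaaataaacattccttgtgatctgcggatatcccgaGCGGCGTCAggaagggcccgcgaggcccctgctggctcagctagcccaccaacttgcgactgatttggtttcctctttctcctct
Slc5a1, chr5:33103969-33104268, plus strand: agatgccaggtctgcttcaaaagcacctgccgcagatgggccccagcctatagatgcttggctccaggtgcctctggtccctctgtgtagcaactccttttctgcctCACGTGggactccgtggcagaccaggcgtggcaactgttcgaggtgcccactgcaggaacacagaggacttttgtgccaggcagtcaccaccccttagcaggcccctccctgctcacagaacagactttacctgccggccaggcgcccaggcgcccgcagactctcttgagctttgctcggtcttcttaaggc
Slc16a1, chr3:104638414-104638713, plus strand: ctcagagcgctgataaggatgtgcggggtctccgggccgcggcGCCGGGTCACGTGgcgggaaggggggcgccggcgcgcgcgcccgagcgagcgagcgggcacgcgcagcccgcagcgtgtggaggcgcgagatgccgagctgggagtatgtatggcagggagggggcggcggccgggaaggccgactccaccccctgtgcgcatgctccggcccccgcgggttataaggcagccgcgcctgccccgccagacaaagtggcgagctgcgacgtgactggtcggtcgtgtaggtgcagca

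The Slc34a2 sequence held none of the 3 motifs. Slc20a1 held 2 E-boxes, Slc5a1 held 1 E-box, and Slc39a8 held 1 antioxidant response element. In Slc16a1 an antioxidant response element and an E-box overlapped. A second listed start, not printed, held 1 antioxidant response element in Slc20a1 and 1 E-box in Slc39a8. RefSeq promoters were found for 121 of the 152 members. An E-box stood in at least 1 promoter of 18.2% of these, of 12.1% of the genes at 8 or more in WT and of 8.09% of all genes with a promoter. The antioxidant response element stood in 22.3%, 17% and 14% of the same sets. A CArG box was found in 1 member, Slc25a23 (0.826%), against 1.53% and 1.81%. The matches are a description of letters and show no binding.

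The 3 groups could be told apart by the genes that define them. Dstn lay between 12.55 and 12.59 in the WT pools and between 5.54 and 5.80 in the mutant and rescued pools. Srf lay at 8.98 to 9.23 in WT, 10.55 to 10.77 in mutant and 8.45 to 9.45 in rescued corneas. Of 8 corneal epithelium markers, 6 were measured and each lay above 6.77, the median of all rows, in every group. Their summed level was 15.80 to 15.82 in WT, 15.52 to 15.55 in mutant and 15.85 to 15.88 in rescued pools on the log2 scale. From mutant to rescued 5 of the 6 rose and 1, Krt14, fell. Krt14 had means of 12.34, 13.56 and 13.30 in WT, mutant and rescued corneas. It was the 1 marker called higher in rescued than in WT, and the other 5 were not called. Summed corneal endothelium markers (6 of 6 measured, Slc4a11 among them) lay at 13.06 to 13.16 in WT, 12.70 to 12.92 in mutant and 12.86 to 12.95 in rescued pools, with Car2 below 6.77 in WT and rescued corneas. Of these 6, 4 were lower and 1 was higher in mutant than in WT, and from mutant to rescued 1 fell and 5 were not called. Summed macrophage markers (13 of 14 measured) lay at 11.83 to 11.87, 12.33 to 12.74 and 12.39 to 12.69 in the same order, with Ptprc, C1qc, Cd14, Slc11a1 and Slc15a3 below 6.77 in WT. Itgam, the brightest of this list in WT, went the other way, with means of 10.33, 9.20 and 10.59. Blood endothelium markers (10 of 10) lay at 10.38 to 10.42, 11.47 to 12.02 and 11.04 to 11.40, with Cdh5, Emcn, Tek, Esam, Cldn5 and Vwf below 6.77 in WT. Kdr, the brightest of this list in WT, was lower in mutant and rescued corneas, with means of 9.06, 8.48 and 8.47. Conjunctival keratins and mucin (4 of 4) lay at 12.16 to 12.58, 13.80 to 13.99 and 13.09 to 13.81, with Muc5ac below 6.77 throughout. Lens markers (12 of 12) lay at 13.05 to 13.54, 11.62 to 12.72 and 11.50 to 11.85, with Bfsp2 and Lim2 below 6.77. The mean of 3 Y-linked genes was 5.34, 9.77 and 5.15 in the WT pools and 7.16 to 9.77 in the others. The part of these cell types, and of the make-up of the pools, in the differences below was not tested. In whole corneas, fewer cells of a type and less RNA per cell cannot be told apart.

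In the rescued corneas, 36 of the 152 solute carriers were higher than in the mutant and 15 were lower at an adjusted p under 0.05, that is 33.6% of the members. Over all 22180 genes 13.3% passed this test, 6.46% higher and 6.88% lower, and over the genes at 8 or more in WT 24% passed, 13.4% higher and 10.6% lower. Higher members made up 23.7% of the list, above both of these backgrounds, while lower members made up 9.87%, near the share of genes at 8 or more in WT. The difference between these shares was not tested. The choice by WT level bears on this balance: with members chosen by a mutant mean of 8 or more, 30 of 50 calls were higher. At least 2-fold differences were found for 7 higher members and 1 lower member, beside 0.748% and 0.658% of all genes. Slc34a2 and Slc5a1, singled out with their differences known, are counted among the higher members and among these 7. The median difference was 0.06 on the log2 scale over the members and −0.002 over all genes. The count of lower members fell to 7 without mutant pool 3 or without rescued pool 3, and to 9 without mutant pool 1 or without rescued pool 1. Of the 51 calls, 33 held in each of 16 alternatives, which kept the cutoff, the members and the set of genes tested. Calls that did not hold are named with their genes. The replicate block adds the pool number to the fit, and the fit to the 6 arrays of the comparison leaves out WT. Shares of each class called in this comparison, given below, are to be set beside the 13.3% and 24%, and most classes hold fewer than 20 genes.

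Against WT, 33 members were higher in the mutant and 60 were lower, or 61.2% in all. Beside them, 31.6% of all genes were called (15.1% higher, 16.5% lower), and 49.5% of the genes at 8 or more in WT (20.1% higher, 29.4% lower). In the rescued corneas 22 members were higher and 25 lower than in WT, or 30.9%, beside 13.7% of all genes (6.28% higher, 7.43% lower) and 21.3% of those at 8 or more in WT (7.73% higher, 13.5% lower). At least 2-fold differences from WT numbered 4 higher and 10 lower in the mutant, beside 3.04% and 1.99% of all genes. In the rescued corneas they numbered 0 in either direction, beside 1.2% and 0.478% of all genes. Since members had to be bright in WT, nothing is read from these counts. All 3 comparisons draw on the same 9 arrays, so that a mutant pool enters both the difference from WT and the difference from rescued. Members close to the threshold were Slc36a1 (mean 8.003 in WT), Slc9a3r2 (8.01), Slc46a2 (8.01) and Slc35e4 (8.07) just inside it. Just outside were Slc23a2 (7.99), Slc2a8 (7.97), Slc25a45 (7.96) and Slc7a7 (7.87). The lowest group mean of any member was 7.42, for Slc1a3 in the mutant, and so lay above the median of all rows. Folds are ratios of intensities, from which background was not subtracted here.

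**Figure D1:**
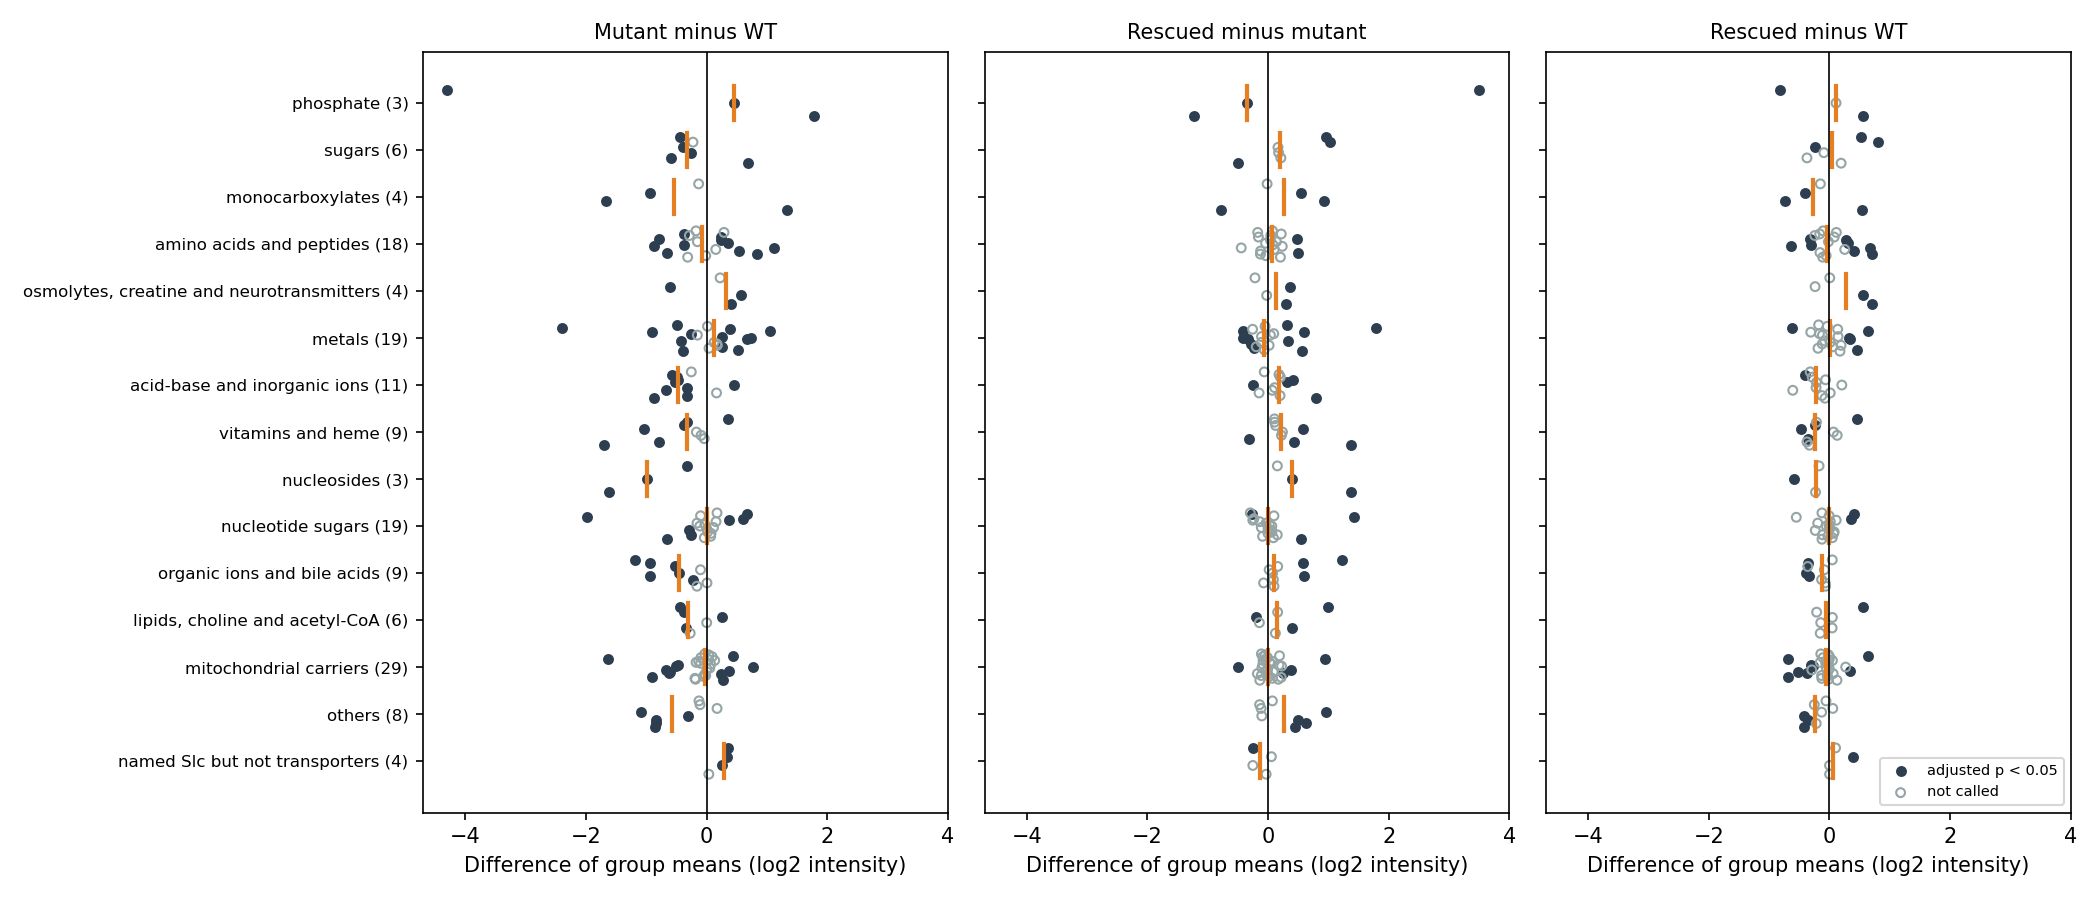
Each point is 1 of 152 solute carrier genes, placed by transporter class (rows, with the number of members) and by the difference of group means in log2 intensity (horizontal axis) for mutant minus WT, rescued minus mutant and rescued minus WT. Filled points had an adjusted p under 0.05, open points did not, and the orange bar is the class median. Against WT this marking is a description, since the level in WT chose the members. Slc34a2 lies farthest from 0 in the first panel (−4.30) and in the second (3.49), and no point of the third panel reaches 1 in either direction.

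The phosphate carriers diverged: the epithelial carrier was low in the mutant while the widely expressed carriers were high. Slc34a2 encodes the sodium-phosphate cotransporter of lung and other epithelia. Its log2 intensity was 11.87, 11.77 and 11.83 in the WT pools, 7.67, 7.38 and 7.52 in the mutant pools and 11.03, 10.93 and 11.07 in the rescued pools. The 3 groups did not overlap, and each rescued pool lay closer to WT than to any mutant pool. Slc34a2 was 19.8-fold lower in mutant than in WT (log2 difference −4.30 ± 0.08, SE) and 11.2-fold higher in rescued than in mutant (3.49 ± 0.08). Against WT, the rescued corneas remained 1.76-fold lower (−0.82 ± 0.08). The increase from mutant to rescued was the largest of the 22180 genes. Because Slc34a2 was singled out with these differences known, they carry no test.

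Slc20a1 and Slc20a2 encode the other sodium-phosphate cotransporters of the cornea, which supply phosphate to most cell types. Slc20a1 was at 9.85, 9.86 and 9.76 in WT, 11.75, 11.56 and 11.51 in mutant and 10.42, 10.68 and 10.05 in rescued pools. The groups did not overlap, and the rescued pools spread more widely than the others. Slc20a1 exceeded its WT level 3.45-fold in the mutant (1.79 ± 0.14) and fell 2.34-fold from mutant to rescued (−1.22 ± 0.14, adjusted p = 0.000536), the largest decrease among the members. Slc20a2 was at 9.83, 9.66 and 9.58 in WT, 10.22, 10.08 and 10.12 in mutant and 9.79, 9.86 and 9.75 in rescued pools, so that rescued and WT overlapped. Its decrease from mutant to rescued was 1.27-fold (−0.34 ± 0.08, adjusted p = 0.0188). That call was lost without mutant pool 1 or 3 or rescued pool 1 or 3, with an adjusted p of up to 0.0745.

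**Figure D2:**
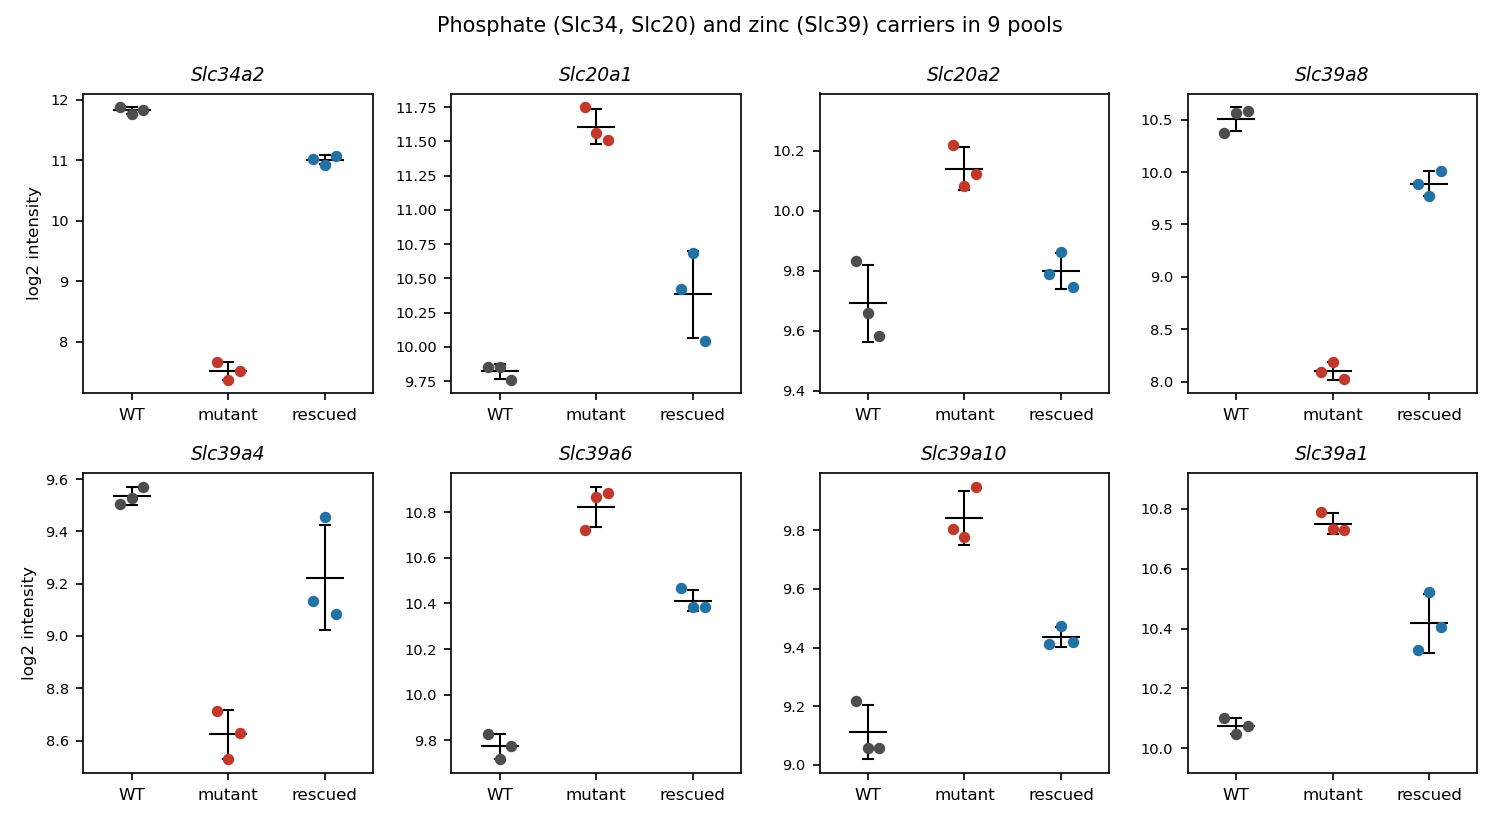
Log2 intensity (vertical axis, with a scale of its own in each panel) of 3 phosphate carriers and 5 zinc carriers in the 3 pools of each group; points are pools, and bars are the mean ± SD. Slc34a2, Slc39a8 and Slc39a4 are lowest in the mutant pools, whereas Slc20a1, Slc20a2, Slc39a6, Slc39a10 and Slc39a1 are highest there.

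The metal carriers showed the same divergence within a family. Of 19 members, 5 rose and 5 fell from mutant to rescued (52.6% called, beside 13.3% of all genes and 24% of genes at 8 or more in WT), and the class median difference was −0.06. Slc39a8, which imports zinc and manganese, was at 10.37, 10.56 and 10.58 in WT, 8.09, 8.19 and 8.02 in mutant and 9.88, 9.77 and 10.01 in rescued pools. The 3 groups did not overlap. Slc39a8 was 5.29-fold lower in mutant than in WT (−2.40 ± 0.09) and rose 3.45-fold in rescued over mutant (1.79 ± 0.09, adjusted p = 5.16e-06). The rescued level was 1.53-fold lower than in WT (−0.62 ± 0.09). Slc39a4, the zinc importer whose loss causes inherited zinc deficiency, was at 9.50 to 9.57 in WT, 8.53 to 8.71 in mutant and 9.08 to 9.45 in rescued pools. It rose 1.52-fold from mutant to rescued (0.60 ± 0.10, adjusted p = 0.00357).

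Other zinc importers of the same family were high in the mutant. Slc39a6 was at 9.83, 9.72 and 9.78 in WT, 10.72, 10.87 and 10.88 in mutant and 10.47, 10.39 and 10.38 in rescued pools. It exceeded its WT level 2.07-fold in the mutant (1.05 ± 0.07) and fell 1.33-fold from mutant to rescued (−0.41 ± 0.07, adjusted p = 0.00332). Slc39a10 fell by 0.41 ± 0.07 on the log2 scale (adjusted p = 0.00534), from mutant pools at 9.78 to 9.95 to rescued pools at 9.41 to 9.47. Slc39a1 fell by 0.33 ± 0.06 (adjusted p = 0.00887), from 10.73 to 10.79 down to 10.33 to 10.52. In these 3 genes the rescued pools lay between the WT and the mutant pools without overlap. Over the 10 Slc39 members, 2 rose, 3 fell and 5 were not called from mutant to rescued. Slc39a7, Slc39a9, Slc39a11, Slc39a13 and Slc39a3 had differences between −0.26 and 0.09.

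Among the 5 Slc30 zinc exporters, Slc30a9 fell from mutant to rescued (−0.29 ± 0.06, adjusted p = 0.0134), with mutant pools at 9.90 to 9.97 and rescued pools at 9.60 to 9.72. This call was lost without mutant pool 3 or rescued pool 3 (adjusted p up to 0.0538). Slc30a5 fell by 0.23 ± 0.07 (adjusted p = 0.047), a call that was lost in 10 of 16 alternatives (adjusted p up to 0.147), among them the replicate block and the omission of any array other than mutant pool 2. Slc30a4 was at 9.22 to 9.32 in WT, 9.71 to 9.87 in mutant and 9.69 to 9.72 in rescued pools, so that mutant and rescued overlapped above WT. For the other metals, Slc11a2, the proton-coupled iron importer, rose 1.48-fold from mutant to rescued (0.57 ± 0.08, adjusted p = 0.00115), from 9.28 to 9.46 in mutant to 9.82 to 10.03 in rescued pools. The magnesium carrier Slc41a1 rose by 0.31 ± 0.08 (adjusted p = 0.0332) and the copper carrier Slc31a2 by 0.34 ± 0.09 (adjusted p = 0.0402). The call of Slc41a1 was lost with the 6 arrays of the comparison and without mutant pool 1 or 2 or rescued pool 2 or 3 (adjusted p up to 0.116). That of Slc31a2 was lost with the same 6 arrays and without WT pool 1 or 2, mutant pool 1 or 3, or rescued pool 2 or 3 (adjusted p up to 0.138). The high-affinity copper importer Slc31a1 differed by −0.11 ± 0.07 (adjusted p = 0.365).

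The class of sugar carriers was drawn by gene family and held 6 members, of which 2 were higher and 1 was lower in rescued than in mutant corneas (50%). Both that were higher also lay above WT, and 1 of them, Slc5a8, belongs to a sugar carrier family but carries monocarboxylates, so that Slc5a1 was the only carrier of sugar among them. Slc5a1 encodes a sodium-glucose cotransporter best known from the intestinal brush border. Its log2 intensity was 10.60, 10.91 and 10.88 in WT, 10.72, 10.20 and 10.79 in mutant and 11.54, 11.63 and 11.64 in rescued pools. WT and mutant pools overlapped, and the rescued pools lay above all 6 of them. Slc5a1 was 2.04-fold higher in rescued than in mutant (1.03 ± 0.15) and 1.74-fold higher than in WT (0.80 ± 0.15), while mutant differed from WT by −0.23 ± 0.15. These values are given without a test, since the gene was singled out with its pattern known. The share of the class called, given above, still counts Slc5a1. Leaving out single arrays or changing the settings moved the difference of rescued from mutant between 0.85 and 1.14.

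Slc5a8, a sodium-coupled carrier of lactate and other monocarboxylates in the same family, had a like order. It was at 11.17, 11.23 and 11.14 in WT, 10.78, 10.50 and 10.93 in mutant and 11.63, 11.68 and 11.78 in rescued pools, with no overlap between groups. It rose 1.95-fold from mutant to rescued (0.96 ± 0.10, adjusted p = 0.000357) and was 1.43-fold higher in rescued than in WT (0.52 ± 0.10). Slc2a1, the facilitative glucose transporter of barrier tissues, was highest in the mutant. Its pools were at 11.72, 11.62 and 11.70 in WT, 12.24, 12.49 and 12.37 in mutant and 11.94, 11.88 and 11.80 in rescued corneas. It fell 1.41-fold from mutant to rescued (−0.50 ± 0.08, adjusted p = 0.00262). Slc2a12, another facilitative hexose carrier, was at 8.24 to 8.53 in WT, 7.45 to 8.07 in mutant and 7.95 to 8.01 in rescued pools, and the last 2 groups overlapped (0.21 ± 0.14, adjusted p = 0.397). Slc50a1 and Slc45a4 differed by 0.16 and 0.17 between rescued and mutant and were not called.

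The 4 members of the Slc16 family, named for its monocarboxylate carriers, included 2 that rose, 1 that fell and 1 that was not called from mutant to rescued. They do not all carry monocarboxylates: Slc16a12, 1 of the 2 that rose, carries creatine. Slc16a1, the proton-coupled lactate transporter, was at 8.84, 8.45 and 8.59 in WT, 10.05, 9.79 and 10.04 in mutant and 9.19, 9.28 and 9.03 in rescued pools. The groups did not overlap, with the rescued pools between the others. Slc16a1 exceeded its WT level 2.52-fold in the mutant (1.33 ± 0.12) and fell 1.73-fold from mutant to rescued (−0.79 ± 0.12, adjusted p = 0.00194). Slc16a12 was at 10.57, 10.67 and 10.63 in WT, 9.06, 8.82 and 8.98 in mutant and 9.88, 9.74 and 10.01 in rescued pools. It was 3.18-fold lower in mutant than in WT (−1.67 ± 0.09) and rose 1.90-fold from mutant to rescued (0.92 ± 0.09, adjusted p = 0.000214). Slc16a13 followed with WT pools at 9.89 to 9.97, mutant pools at 8.82 to 9.17 and rescued pools at 9.47 to 9.66 (rescued over mutant 0.55 ± 0.09, adjusted p = 0.00419). Slc16a9 differed by −0.02 ± 0.09.

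**Figure D3:**
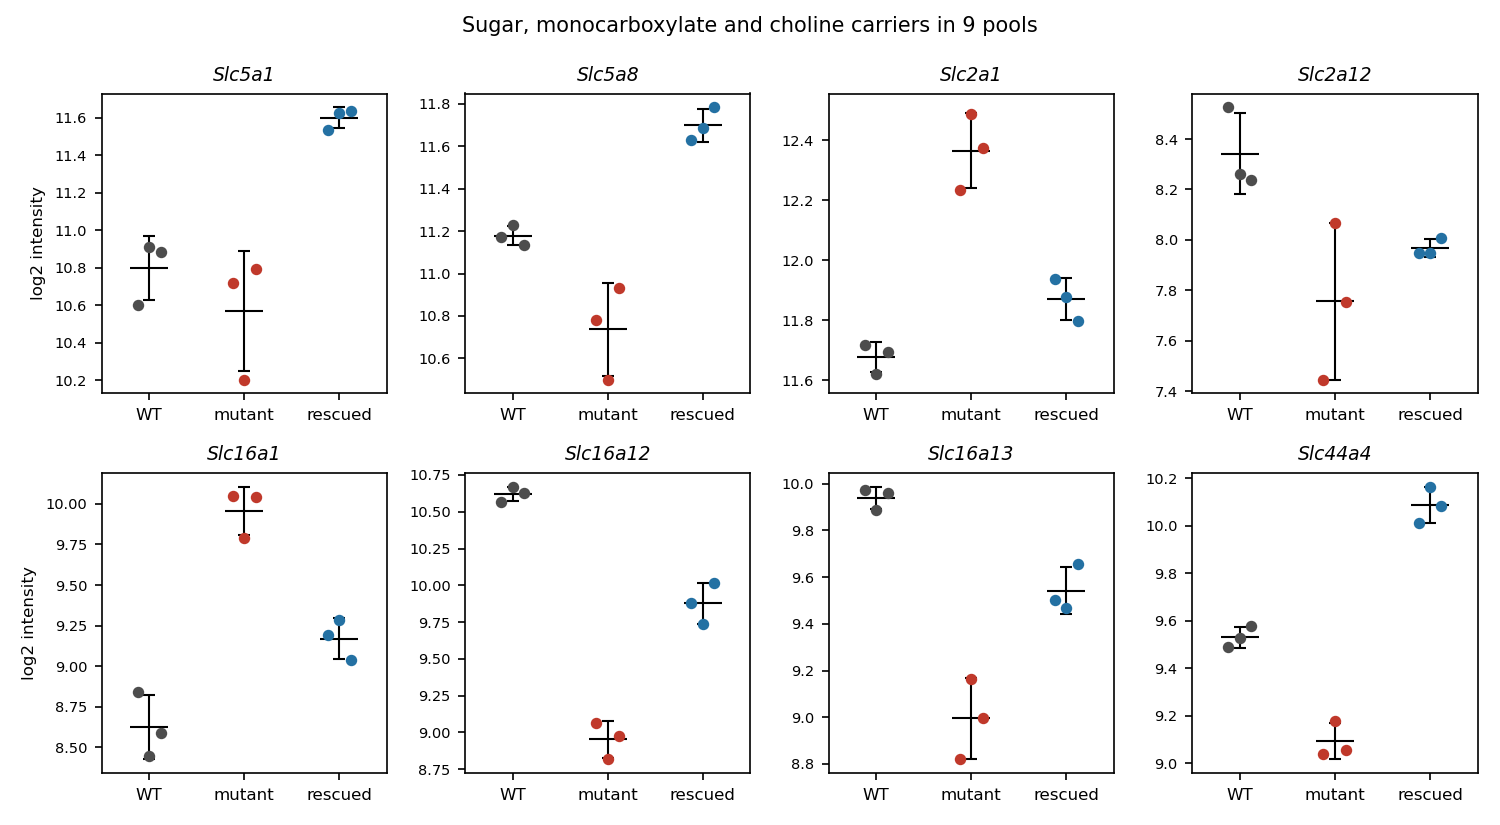
Log2 intensity (vertical axis, with a scale of its own in each panel) of sugar, monocarboxylate and choline carriers in the 3 pools of each group; points are pools, and bars are the mean ± SD. The rescued pools of Slc5a1, Slc5a8 and Slc44a4 lie above all WT and mutant pools, whereas those of Slc2a1, Slc16a1, Slc16a12 and Slc16a13 lie between the WT and the mutant pools.

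The class of amino acid and peptide carriers was drawn by gene family and held 18 members. Slc6a14 and Slc6a20a, described below, stand in the Slc6 class instead. Of the 18, 2 rose from mutant to rescued corneas and 16 were not called, and the class median difference was 0.06. The 11.1% called lies near the 13.3% of all genes and below the 24% of genes at 8 or more in WT, and the difference between these shares was not tested. Slc38a9, a lysosomal carrier that senses arginine, was at 9.21, 9.14 and 9.19 in WT, 8.38, 8.44 and 8.34 in mutant and 8.86, 8.77 and 8.95 in rescued pools, with no overlap. It rose by 0.48 ± 0.07 on the log2 scale (adjusted p = 0.00139). The glutamate carrier Slc1a3 rose by 0.49 ± 0.09 (adjusted p = 0.00798), from 7.29 to 7.58 in mutant to 7.82 to 8.01 in rescued pools.

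Several amino acid carriers stood apart from WT in both the mutant and the rescued corneas. Slc1a1, the epithelial carrier of glutamate and cysteine, was at 11.49, 11.57 and 11.61 in WT, 12.37, 12.41 and 12.39 in mutant and 12.29, 12.33 and 12.17 in rescued pools. It was 1.78-fold higher in mutant and 1.63-fold higher in rescued than in WT. Rescued differed from mutant by −0.13 ± 0.06 (adjusted p = 0.249). Slc36a4 was at 10.02, 9.79 and 10.14 in WT, 10.995, 11.09 and 11.23 in mutant and 11.05, 10.52 and 10.41 in rescued pools, and the rescued pools overlapped the mutant pools through rescued pool 1. A second row of Slc36a4 gave means of 9.36, 9.29 and 8.94 in WT, mutant and rescued corneas, so that the rows of this gene disagree. Slc38a2, which carries glutamine and other neutral amino acids, was at 12.53 to 12.61 in WT, 12.88 to 12.97 in mutant and 12.83 to 12.93 in rescued pools. Its relative Slc38a1 went the other way, with 9.06 to 9.12 in WT, 8.06 to 8.48 in mutant and 8.21 to 8.62 in rescued pools (rescued over mutant 0.24 ± 0.13, adjusted p = 0.288). The large neutral amino acid transporter Slc7a5 and its heavy chain Slc3a2 differed by −0.17 ± 0.15 and −0.16 ± 0.07 between rescued and mutant and were not called.

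The Slc6 carriers use sodium and chloride, and 2 of 4 members rose from mutant to rescued (50%). Slc6a14, a carrier of neutral and cationic amino acids, was at 11.99, 12.13 and 12.03 in WT, 12.53, 12.35 and 12.49 in mutant and 12.86, 12.68 and 12.72 in rescued pools. Each group lay above the one before it without overlap. It exceeded its WT level 1.32-fold in the mutant and rose a further 1.23-fold in rescued over mutant (0.30 ± 0.08, adjusted p = 0.0305). The latter call was lost with the replicate block, with the 6 arrays of the comparison, and without mutant pool 2 or 3 or rescued pool 1 or 3 (adjusted p up to 0.0951). Slc6a6, the taurine transporter, was at 12.64, 12.80 and 12.92 in WT, 12.27, 12.17 and 12.12 in mutant and 12.50, 12.58 and 12.57 in rescued pools. It rose by 0.36 ± 0.08 from mutant to rescued (adjusted p = 0.0161), a call lost without mutant pool 3 or rescued pool 3 (adjusted p up to 0.064). The imino acid carrier Slc6a20a was at 9.07 to 9.45 in WT, 9.66 to 9.92 in mutant and 9.55 to 10.04 in rescued pools. The creatine transporter Slc6a8 differed by −0.22 ± 0.08 between rescued and mutant (adjusted p = 0.0933).

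Of 29 mitochondrial Slc25 members 25 were not called between rescued and mutant, 3 rose and 1 fell. The 13.8% called is near the 13.3% of all genes and below the 24% of genes at 8 or more in WT. Slc25a5, the ADP and ATP exchanger, was at 12.96 to 13.02 in WT, 12.98 to 13.10 in mutant and 12.97 to 12.99 in rescued pools. The phosphate carrier Slc25a3 differed by −0.10 ± 0.06 between rescued and mutant. Slc25a43, a mitochondrial carrier whose substrate is not settled, was at 9.90, 9.78 and 9.92 in WT, 8.04, 8.25 and 8.39 in mutant and 9.16, 9.02 and 9.33 in rescued pools. Its groups did not overlap. It was 3.11-fold lower in mutant than in WT (−1.64 ± 0.11) and rose 1.92-fold from mutant to rescued (0.94 ± 0.11, adjusted p = 0.000482).

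The folate and flavin carrier Slc25a32 ran the other way. It was at 8.77, 8.73 and 8.64 in WT, 9.55, 9.52 and 9.39 in mutant and 9.06, 9.05 and 8.84 in rescued pools, and fell 1.42-fold from mutant to rescued (−0.51 ± 0.08, adjusted p = 0.00288). Slc25a27, an uncoupling protein relative, rose by 0.39 ± 0.09 (adjusted p = 0.0203), a call lost without mutant pool 1 or 3 or rescued pool 3 (adjusted p up to 0.0761). Slc25a20, which imports acylcarnitines for fat oxidation, rose by 0.24 ± 0.07 (adjusted p = 0.0432), a call that was lost with centring on array medians, with the 6 arrays of the comparison and when any of the 9 arrays was left out (adjusted p up to 0.118). The aspartate-glutamate carrier Slc25a12 was at 10.34 to 10.52 in WT, 9.41 to 9.62 in mutant and 9.69 to 9.85 in rescued pools. Rescued differed from mutant by 0.22 ± 0.08 (adjusted p = 0.117) and stayed 1.62-fold below WT. The calcium-regulated carrier Slc25a23 was likewise at 8.56 to 8.73 in WT and at 7.996 to 8.21 over the mutant and rescued pools. Slc25a48 was at 9.54 to 9.72 in WT, 9.91 to 10.22 in mutant and 10.13 to 10.51 in rescued pools.

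**Figure D4:**
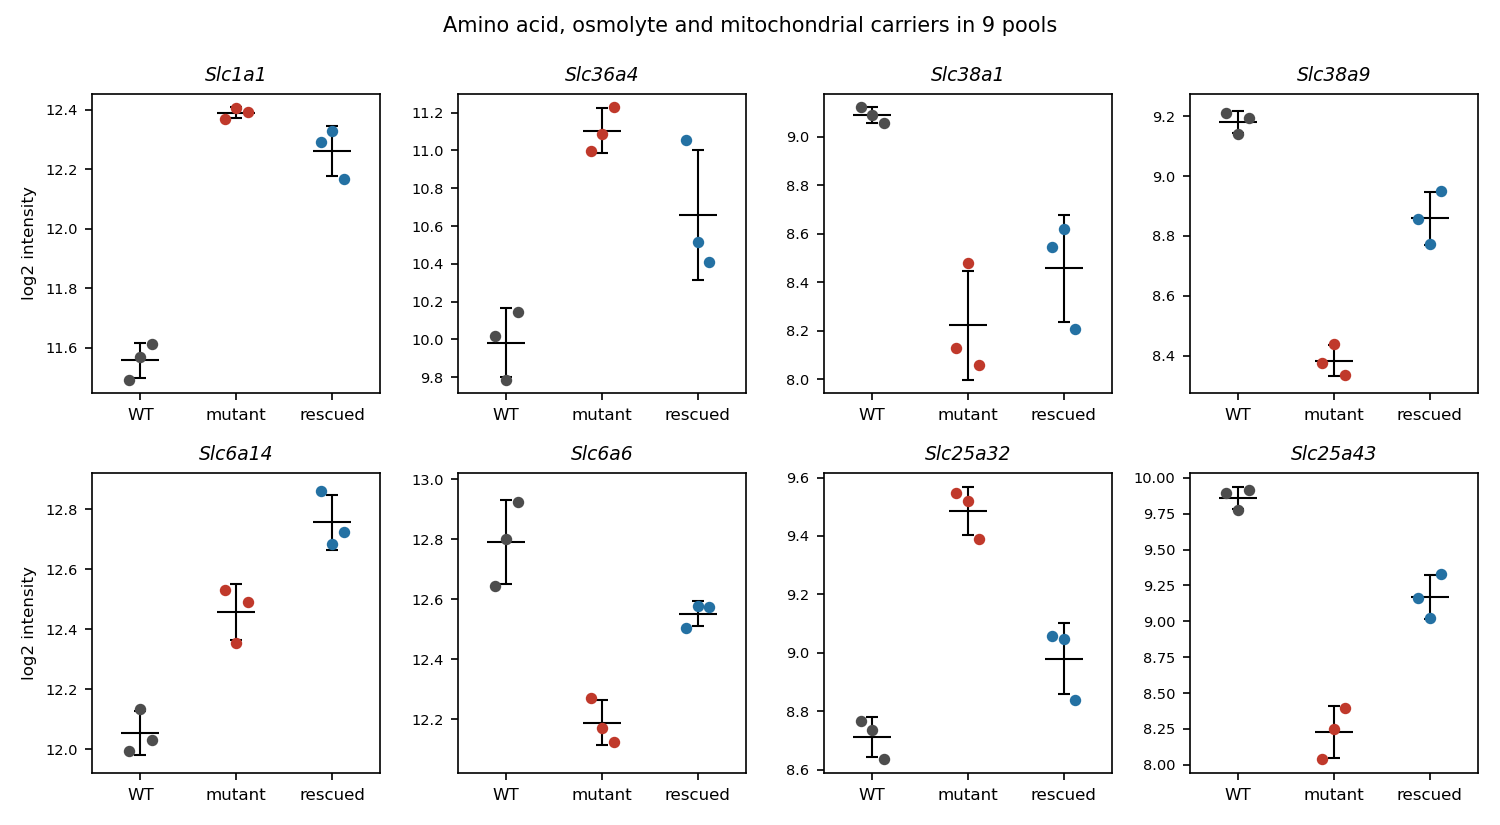
Log2 intensity (vertical axis, with a scale of its own in each panel) of amino acid, osmolyte and mitochondrial carriers in the 3 pools of each group; points are pools, and bars are the mean ± SD. Slc1a1 and Slc36a4 are above WT and Slc38a1 is below WT in all mutant and rescued pools, and Slc6a14 is highest in the rescued pools.

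Among the vitamin and heme carriers, 3 of 9 members rose from mutant to rescued and 1 fell (44.4% called). Slc19a2, a thiamine transporter, was at 11.09, 10.98 and 11.10 in WT, 9.19, 9.26 and 9.60 in mutant and 10.70, 10.65 and 10.82 in rescued pools. The groups did not overlap, and mutant pool 3 was the highest of the mutant pools. Slc19a2 was 3.26-fold lower in mutant than in WT (−1.71 ± 0.10) and rose 2.59-fold from mutant to rescued (1.37 ± 0.10, adjusted p = 5.95e-05). Slc46a3, a lysosomal carrier related to the folate transporter, was at 8.59 to 9.01 in WT, 7.69 to 7.94 in mutant and 8.22 to 8.43 in rescued pools (rescued over mutant 0.57 ± 0.12, adjusted p = 0.0105). The riboflavin transporter Slc52a3 was at 9.36 to 9.58 in WT, 9.66 to 9.99 in mutant and 9.87 to 9.93 in rescued pools. The heme carrier Slc48a1 differed by 0.12 ± 0.06 between rescued and mutant (adjusted p = 0.224). In the nucleobase and ascorbate family, Slc23a3 rose by 0.42 ± 0.12 (adjusted p = 0.0441) and Slc23a4 fell by 0.31 ± 0.09 (adjusted p = 0.0437). Each of these calls was lost in 11 of 16 alternatives (adjusted p up to 0.15 and 0.149), for Slc23a4 the replicate block among them. The Slc23a3 call held, with single arrays left out, only without mutant pool 3 or rescued pool 1, and that of Slc23a4 only without rescued pool 2.

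Of 3 nucleoside carriers 2 rose from mutant to rescued (66.7%). Slc28a3, the concentrative sodium-coupled nucleoside transporter, was at 11.28, 11.20 and 11.28 in WT, 9.95, 9.34 and 9.62 in mutant and 10.91, 11.06 and 11.09 in rescued pools. It was 3.06-fold lower in mutant than in WT (−1.61 ± 0.13) and rose 2.61-fold from mutant to rescued (1.38 ± 0.13, adjusted p = 0.000197), ending 0.23 ± 0.13 below WT. Slc29a1, the equilibrative transporter of the plasma membrane, was at 9.43, 9.36 and 9.57 in WT, 8.44, 8.51 and 8.45 in mutant and 8.91, 8.82 and 8.85 in rescued pools. It rose 1.32-fold from mutant to rescued (0.40 ± 0.07, adjusted p = 0.00513). With the mean of all its rows in place of the brightest the difference was 0.21 and the call was lost (adjusted p = 0.134). The lysosomal relative Slc29a3 differed by 0.15 ± 0.10 and was not called.

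The organic ion class had 3 of 9 members that rose and none that fell from mutant to rescued (33.3%). Slc47a1, which extrudes organic cations in exchange for protons, was at 9.08, 8.79 and 8.80 in WT, 7.86, 7.44 and 7.81 in mutant and 8.69, 8.90 and 9.21 in rescued pools. WT and rescued overlapped above the mutant. It rose 2.35-fold from mutant to rescued (1.23 ± 0.15, adjusted p = 0.000825). Slc22a5, the high-affinity carnitine transporter, rose 1.49-fold (0.58 ± 0.07, adjusted p = 0.000904), with 9.31 to 9.54 in WT, 8.46 to 8.49 in mutant and 8.97 to 9.12 in rescued pools. Slc22a18, an orphan organic cation carrier, rose 1.51-fold (0.60 ± 0.09, adjusted p = 0.00225). Slc22a4 and Slc22a21, relatives of the carnitine transporter, differed by 0.16 ± 0.11 and 0.08 ± 0.09 and were not called.

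Carriers of nucleotide sugars supply the Golgi apparatus with activated sugars for glycosylation. The class named for them was drawn by the family number Slc35. That number alone does not show that a member, Slc35f2 and Slc35f6 included, carries a nucleotide sugar. Of the 19 Slc35 members 16 were not called between rescued and mutant. The class median difference was 0.0003, and the 15.8% called is near the 13.3% of all genes. Slc35a1, which carries the sialic acid donor, was at 10.18, 10.20 and 10.11 in WT, 9.53, 9.59 and 9.37 in mutant and 10.22, 9.85 and 10.05 in rescued pools. It rose 1.45-fold from mutant to rescued (0.54 ± 0.10, adjusted p = 0.0062), and WT and rescued overlapped. Slc35f2 was at 10.12, 10.17 and 10.08 in WT, 8.49, 7.60 and 8.35 in mutant and 9.45, 9.47 and 9.79 in rescued pools. It was 3.94-fold lower in mutant than in WT (−1.98 ± 0.20) and rose 2.69-fold from mutant to rescued (1.43 ± 0.20, adjusted p = 0.00155), with mutant pool 2 below the other mutant pools. Slc35f6 was at 10.49 to 10.57 in WT, 11.16 to 11.21 in mutant and 10.84 to 11.03 in rescued pools. It fell by 0.27 ± 0.07 (adjusted p = 0.0267), a call lost with the replicate block, with the 6 arrays of the comparison, and without mutant pool 1 or 3 or rescued pool 1 or 3 (adjusted p up to 0.0999).

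Sialic acid leaves the lysosome through Slc17a5, which was at 11.08 to 11.13 in WT, 10.22 to 10.33 in mutant and 10.81 to 11.01 in rescued pools. It rose 1.54-fold from mutant to rescued (0.62 ± 0.07, adjusted p = 0.000402). In the same mixed class of 8 members, Slc37a1, which exchanges sugar phosphate for phosphate, was at 9.87, 9.79 and 9.88 in WT, 8.67, 8.90 and 8.72 in mutant and 9.65, 9.67 and 9.82 in rescued pools. It rose 1.93-fold (0.95 ± 0.08, adjusted p = 0.000106) and ended within the range of the WT pools in 1 of 3 rescued pools. The vesicular nucleotide carrier Slc17a9 rose by 0.49 ± 0.09 (adjusted p = 0.00546). Slc14a1, the urea transporter, rose by 0.44 ± 0.10 (adjusted p = 0.0207), from 10.29 to 10.70 in mutant to 10.90 to 10.98 in rescued pools, beside 11.29 to 11.50 in WT. That call was lost without mutant pool 1 or 3 or without any 1 of the rescued pools (adjusted p up to 0.0621). These 4 higher members (50%) stood beside 0 lower members in a class of genes with unlike substrates, where 6.46% of all genes and 13.4% of genes at 8 or more in WT were higher.

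**Figure D5:**
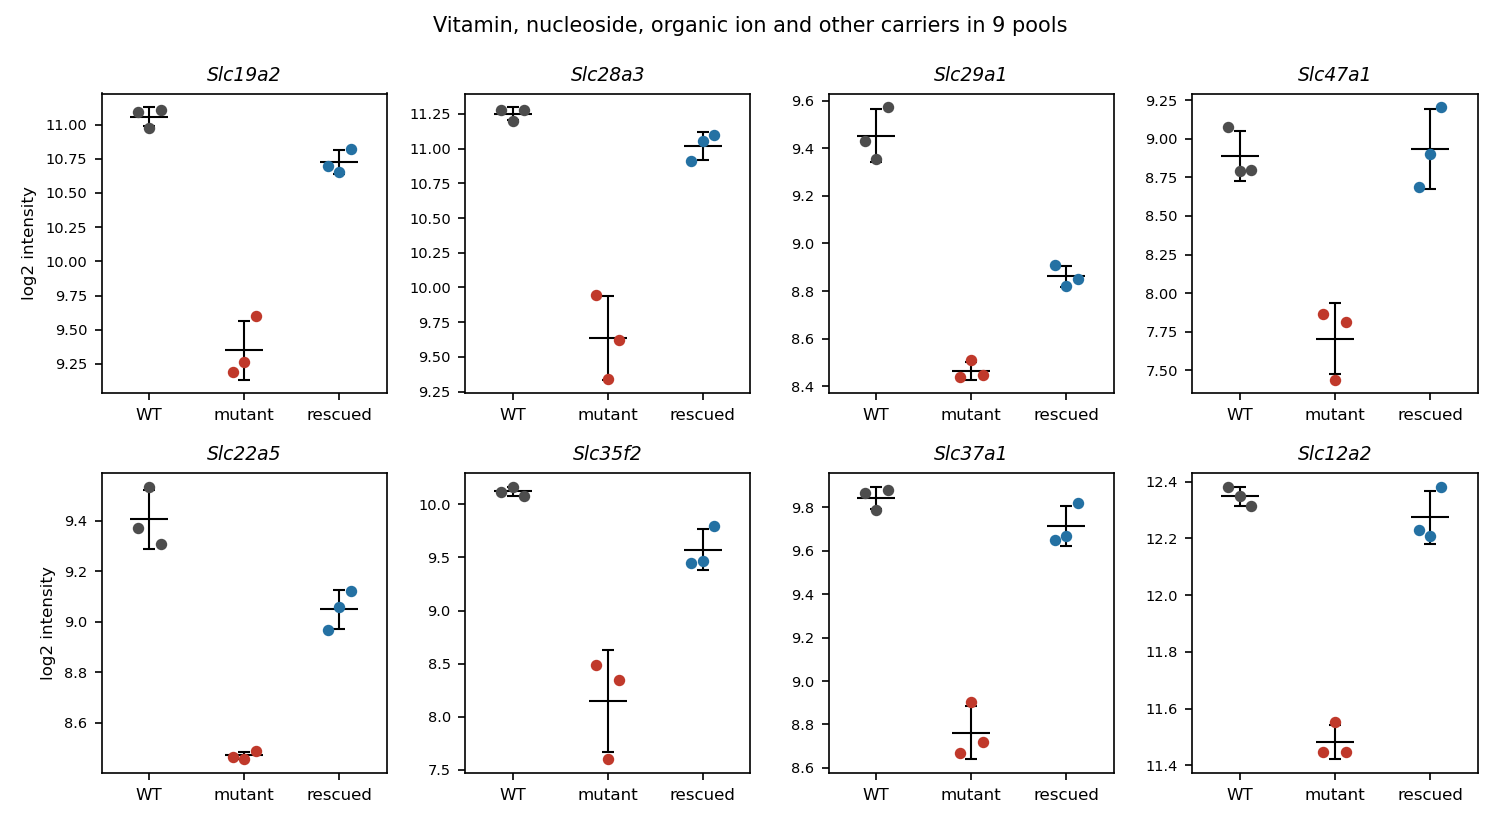
Log2 intensity (vertical axis, with a scale of its own in each panel) of vitamin, nucleoside, organic ion and other carriers in the 3 pools of each group; points are pools, and bars are the mean ± SD. In each of the 8 genes all mutant pools lie below all WT and all rescued pools, and in Slc47a1, Slc37a1 and Slc12a2 the rescued pools overlap the WT pools.

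The acid-base and ion class of 11 members had 3 that rose and 1 that fell from mutant to rescued (36.4% called). Slc12a2, the sodium-potassium-chloride cotransporter that loads epithelia with chloride, was at 12.38, 12.35 and 12.31 in WT, 11.45, 11.55 and 11.45 in mutant and 12.23, 12.21 and 12.38 in rescued pools. It was 1.82-fold lower in mutant than in WT (−0.87 ± 0.07) and rose 1.73-fold from mutant to rescued (0.79 ± 0.07, adjusted p = 0.000113), ending 0.07 ± 0.07 below WT. The sodium-bicarbonate cotransporter Slc4a4, which serves fluid transport by the corneal endothelium, rose by 0.31 ± 0.07 (adjusted p = 0.0148), a call lost without mutant pool 1 or 3 or rescued pool 3 (adjusted p up to 0.0617). The mitochondrial calcium exchanger Slc8b1 rose by 0.41 ± 0.08 (adjusted p = 0.00918). Slc4a2, an anion exchanger, fell by 0.25 ± 0.07 (adjusted p = 0.0333), a call lost with the 6 arrays of the comparison and without WT pool 2, mutant pool 2 or 3, or rescued pool 1 or 3 (adjusted p up to 0.111). Slc4a11, a marker of the corneal endothelium whose loss causes endothelial dystrophy, was at 11.86 to 11.95 in WT, 11.38 to 11.69 in mutant and 11.58 to 11.75 in rescued pools (rescued over mutant 0.11 ± 0.09, adjusted p = 0.518). The anion exchanger Slc26a7 was at 10.61 to 11.18 in WT, 9.96 to 10.62 in mutant and 10.13 to 10.58 in rescued pools, where mutant and rescued overlapped. Slc9a8, a sodium-proton exchanger, differed by 0.18 ± 0.06 between rescued and mutant (adjusted p = 0.0771) and stayed 1.32-fold below WT.

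Choline and lipid carriers numbered 6, of which 2 rose and 1 fell from mutant to rescued (50% called). Slc44a4, a choline-like transporter that carries thiamine pyrophosphate in the colon, was at 9.49, 9.53 and 9.58 in WT, 9.04, 9.18 and 9.06 in mutant and 10.01, 10.16 and 10.08 in rescued pools. As in Slc5a8, the mutant was below and the rescued above WT without overlap. Slc44a4 rose 1.99-fold from mutant to rescued (0.99 ± 0.07, adjusted p = 2.82e-05) and was 1.47-fold higher in rescued than in WT (0.56 ± 0.07). The fatty acid carrier Slc27a4 rose by 0.39 ± 0.07 (adjusted p = 0.00471), from 9.80 in each mutant pool to 10.06 to 10.28 in the rescued pools. Slc44a1, the ubiquitous choline carrier, fell by 0.21 ± 0.06 (adjusted p = 0.0451), a call lost in 13 of 16 alternatives, among them the replicate block and the omission of any of the 9 arrays (adjusted p up to 0.131). Slc44a2, Slc27a1 and the acetyl-CoA carrier Slc33a1 were not called, with differences of 0.16, 0.12 and −0.14.

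Under the symbol rule 4 members were not transporters. Slc9a3r1 and Slc9a3r2 encode scaffold proteins that hold sodium-proton exchangers and phosphate carriers at the apical membrane. Slc9a3r1 was at 10.72 to 10.82 in WT, 11.06 to 11.16 in mutant and 11.08 to 11.21 in rescued pools, so that mutant and rescued overlapped above WT. Slc9a3r2 fell by 0.25 ± 0.06 from mutant to rescued (adjusted p = 0.0316), a call lost with the 6 arrays of the comparison and without WT pool 2, any 1 of the mutant pools, or rescued pool 1 or 3 (adjusted p up to 0.0931). Slc7a6os and Slc4a1ap differed by −0.25 ± 0.08 and −0.03 ± 0.05 and were not called.

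Pumps, channels, carbonic anhydrases, chaperones and regulators that work beside solute carriers formed a list of 58 genes, of which 52 were measured. From mutant to rescued 5 rose and 13 fell (34.6% called, 9.62% higher and 25% lower), and the median difference was −0.10. Over all genes 13.3% were called, 6.46% higher and 6.88% lower. Over genes at 8 or more in WT 24% were called, 13.4% higher and 10.6% lower. The list was drawn up with earlier results known and not by level, and the difference between these shares was not tested. Clic3, an intracellular chloride channel protein, rose 2.14-fold (1.10 ± 0.08, adjusted p = 4.24e-05), with 11.27 to 11.37 in WT, 10.21 to 10.39 in mutant and 11.30 to 11.51 in rescued pools. The epithelial sodium channel subunit Scnn1a rose by 0.84 ± 0.21 (adjusted p = 0.0265), a call lost with the replicate block, with the 6 arrays of the comparison, and without mutant pool 2 or 3 (adjusted p up to 0.0788). Emb, the gene for embigin, a chaperone of lactate carriers, fell 2.01-fold (−1.01 ± 0.15, adjusted p = 0.00221), from 9.95 to 10.08 in mutant to 8.85 to 9.24 in rescued pools. Emb has 2 rows. Over the 16 alternatives its difference ran from −1.13 to −0.50, and the call held. Bsg, the gene for the chaperone basigin, was at 12.73 to 12.84 in mutant and 12.78 to 12.86 in rescued pools and was not called. The carbonic anhydrase genes Car2 and Car12 fell by 0.98 ± 0.15 and 0.94 ± 0.17 (adjusted p = 0.00219 and 0.0056). The chloride channel protein gene Clic4 fell by 0.90 ± 0.11 (adjusted p = 0.000798). Car2 also stands in the corneal endothelium marker list, where it was the 1 gene called between rescued and mutant.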

How the data were processed

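RNA of whole corneas (Trizol) was amplified by the Ambion WT Expression kit and biotin-labelled for Affymetrix arrays, per the labels. The deposited values are log2 intensities already normalised by the authors. Their normalisation method is not given in the sources, and base 2 follows from the range of the values (2.14 to 14.3). Of 41345 rows, 23521 carry exactly 1 symbol in the platform annotation and 1814 several (18 with an Slc symbol, not used). For genes with more than 1 row (9 members) the brightest row over all arrays stood for the gene. The 152 members were found in RefSeq by gene ID under the same symbol. RefSeq GRCm38.p6 gave promoters for 121.

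All comparisons came from 1 limma fit (limma 3.58.1 in R 4.3.3; lmFit, contrasts, eBayes) over all 9 arrays and 22180 genes, two-sided, with Benjamini-Hochberg adjustment over all genes. A gene was called at an adjusted p under 0.05; SEs are limma's moderated SEs. The fit was tested on simulated data. Precision is limited by the number of arrays. Pools are labelled biological replicates, and no label says what the replicate numbers mark, so the arrays were fitted as unpaired. Correlations of deviations ran from −0.016 to 0.063 between arrays of the same number. Between arrays of different numbers they ran from −0.095 to 0.080. These values cannot show whether the numbers mark a litter, batch or day.

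The members, classes and lists were chosen with earlier results of these data known. Genes were named by this rule: Slc34a2 and Slc5a1; in each comparison the 10 called members with the largest increase and the 10 with the largest decrease whose groups did not overlap; up to 3 per class of at least 5 members with the largest difference of mutant from WT; the 5 brightest members in WT; the members nearest to the threshold; and up to 6 partner genes. Slc1a3, Slc3a2, Slc4a1ap, Slc4a2, Slc4a4, Slc4a11, Slc6a8, Slc7a5, Slc7a6os, Slc8b1, Slc9a3r1, Slc11a2, Slc16a9, Slc16a13, Slc17a5, Slc22a4, Slc22a21, Slc25a3, Slc25a20, Slc25a27, Slc27a1, Slc29a3, Slc30a4, Slc30a5, Slc31a1, Slc31a2, Slc33a1, Slc38a9, Slc39a3, Slc39a7, Slc39a9, Slc39a11, Slc39a13, Slc41a1, Slc44a1, Slc45a4, Slc48a1, Slc50a1, Slc52a3 and Bsg, which fall outside this rule, were chosen after their values were seen. Alternatives were quantile normalisation, centring on array medians, filtering at the median intensity, averaging a gene's rows, eBayes with trend and robust, fitting 6 arrays at a time, other member thresholds, an adjusted p under 0.01, a 2-fold minimum, the replicate number as a block, a covariate for Y-linked expression and leaving out each array. Figures were drawn with matplotlib 3.10.9 (Python 3.11.15).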

Additional observations from a re-analysis of the deposited data

How the results depend on the processing

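No difference of a named gene turned direction where it was called, and no count of members changed by over 1.5 times under quantile normalisation, centring, the mean of all rows, trend and robust options, another member threshold or the Y-linked covariate. With a filter at the median intensity 40 members were lower in rescued than in WT, against 25. With the 6 arrays of the comparison 9 members were lower in rescued than in mutant, against 15. At an adjusted p under 0.01, rescued against mutant had 33 members called, 7 of them lower, and rescued against WT had 24, of which 14 were higher and 10 lower. At a minimum of 2-fold, mutant against WT had 14 (4 higher, 10 lower), rescued against mutant 8 (7 higher, 1 lower) and rescued against WT 0 (0 higher, 0 lower). The replicate block gave 93, 46 and 48 calls for mutant against WT, rescued against mutant and rescued against WT, beside 93, 51 and 47. With single arrays left out, members lower in rescued than in mutant numbered 7 to 14, and members lower in rescued than in WT 15 to 27. The totals ran from 81 to 94, from 34 to 46 and from 34 to 49. Calls were followed gene by gene in 16 alternatives that kept the cutoff, the members and the set of genes tested. The filter at the median intensity, the stricter cutoffs and the other member thresholds are not among these 16. In the same order, 76 of 93, 33 of 51 and 29 of 47 calls held in all 16. Where a call was lost, the cause was not tested. The number of arrays limits small differences.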

Other observations

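Solute carriers below the level of 8 in WT were left out of the account above. Of these 209 genes, 5 were higher and 12 lower in rescued than in mutant at an adjusted p under 0.05 in limma, or 8.13%. Over all genes 13.3% were called, but these take in the genes at 8 or more in WT, of which 24% were called. No share was computed over all genes below 8 in WT, so the 8.13% has no background matched in level. Against WT, 28 were higher and 15 lower in the mutant, or 20.6%. Of all genes 31.6% were called and of genes at 8 or more in WT 49.5%, again with no background matched in level. A low level in WT chose these genes, so nothing is read from the counts against WT, their share or their balance. The genes named here were chosen after their values were seen, and their values carry no test. Slc16a3, the lactate exporter of glycolytic cells, was at 7.37 to 7.80 in WT, 9.21 to 9.26 in mutant and 7.94 to 8.36 in rescued pools. The mutant exceeded WT 3.05-fold, and the rescued level was 2.12-fold below the mutant. Slc16a6 had means of 7.19, 8.73 and 7.76 in WT, mutant and rescued corneas, and the mitochondrial carrier Slc25a30 had 7.65, 9.30 and 8.47. Slc26a4, the gene for the anion exchanger pendrin, was at 5.11 to 5.80 in WT and 6.27 to 7.05 in rescued pools, around or below the median of all rows (6.77), and at 7.56 to 7.90 in mutant pools. The lactate and pyruvate carrier Slc16a7 and the aromatic amino acid carrier Slc16a10 went the other way, with mutant means of 6.29 and 6.19 beside WT means of 7.68 and 7.31. In rescued corneas they had means of 7.09 and 6.90.

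The log2 of the summed intensity of the 152 members was 17.47 in each WT pool, 17.36 to 17.38 in the mutant pools and 17.46 to 17.48 in the rescued pools, so that the mutant pools lay below all others. The level in WT chose these members, and no test is attached to this sum.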
